A study of Mus musculus with 14 samples.

Results

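The 9 genes Zmiz1, Gse1, Auts2, Nfib, Bach2, Zfp608, Msi2, Tns1 and Sipa1l2 were among the genes with the most PRDM16 peaks in the wild-type (WT) mouse heart at embryonic stage E13.5. They were chosen by their peak number in WT hearts without atria, out of 21900 protein-coding genes of the RefSeq annotation of GRCm38. Of these genes, 7084 were the nearest gene of at least 1 peak. A peak belongs to a gene here when its summit, the base of highest signal, lies inside the gene or nearer to it than to any other protein-coding gene. In this way 220 of 17587 WT peaks (1.25%) fell to the 9 genes, and none of the 220 summits lay equally near to another gene.

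Binding was measured by chromatin immunoprecipitation with a PRDM16 antibody followed by sequencing (ChIP-seq) in C57BL/6 mice. Ventricles with the atria removed gave 2 WT libraries and 1 library of a conditional Prdm16 knockout, each from 3 pooled hearts of a single genotype, and the labels do not name the promoter that drives the deletion. Isolated left ventricles (LV) and right ventricles (RV) of WT embryos gave 2 libraries each, every library from 10 to 12 pooled ventricles. Besides these 7 libraries the series has 7 inputs, chromatin without antibody, from the same groups. The files used hold a peak list for WT hearts, a peak list for the knockout, and values of both ventricles at each WT peak, but no gene expression, so the tissue was not checked against marker genes. Chromatin of a whole ventricle mixes cell types, so that more bound cells and more binding per cell cannot be told apart.

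PRDM16 is a zinc-finger protein that binds DNA and recruits chromatin regulators such as the CtBP corepressors, and it is known in the heart for its part in the compact layer of the ventricular wall and in cardiomyopathy. Factors of this kind often bind far from gene starts, and long genes of developmental regulators can hold many bound sites. Of the 9 genes, Zmiz1, Gse1 and Auts2 encode coregulators without a sequence-specific DNA-binding domain of the classical kind: ZMIZ1 is a PIAS-like coactivator that works with NOTCH1, GSE1 belongs to a histone deacetylase and demethylase complex, and AUTS2 is part of a noncanonical Polycomb complex. Nfib (a nuclear factor I protein), Bach2 (a basic leucine zipper repressor) and Zfp608 (a zinc-finger protein) encode factors of the nucleus. The label of the set does not cover the rest. Msi2 encodes an RNA-binding regulator of translation, Tns1 encodes tensin, which links integrins to actin at focal adhesions, and Sipa1l2 encodes a GTPase-activating protein of the RAP family.

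Sequence under the peaks could be shown where a summit fell within the 250 bases before a transcript start of RefSeq (build GRCm38.p6), which held for 4 of the 220 peaks. They are shown because they are the bound sequences at these genes that can be read here, and because 1 of them is a start of a member itself. Each is written 5′ to 3′ on the strand of the transcript, and capitals mark the summit with 10 bases on either side. The Gse1 window lies before an internal start of Gse1, and the Gm51556 window before a start of a predicted gene within Gse1. The Gm11264 window lies before a predicted gene outside Nfib, with its summit 224210 bp away. The Gm30713 window lies before a predicted gene outside Sipa1l2, with its summit 32215 bp away.
Gse1, chr8:120537159-120537408, plus strand: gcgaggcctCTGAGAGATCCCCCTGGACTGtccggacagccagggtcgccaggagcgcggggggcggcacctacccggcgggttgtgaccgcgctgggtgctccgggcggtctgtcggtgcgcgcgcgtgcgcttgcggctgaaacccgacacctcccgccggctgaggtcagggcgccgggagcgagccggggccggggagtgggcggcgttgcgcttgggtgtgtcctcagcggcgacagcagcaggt
Gm51556, chr8:120490454-120490703, minus strand: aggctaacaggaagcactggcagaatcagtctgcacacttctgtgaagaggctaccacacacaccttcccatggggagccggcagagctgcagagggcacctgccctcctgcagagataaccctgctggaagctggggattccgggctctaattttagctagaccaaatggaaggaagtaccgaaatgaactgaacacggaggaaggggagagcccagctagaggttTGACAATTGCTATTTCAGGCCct
Gm11264, chr4:82065891-82066140, minus strand: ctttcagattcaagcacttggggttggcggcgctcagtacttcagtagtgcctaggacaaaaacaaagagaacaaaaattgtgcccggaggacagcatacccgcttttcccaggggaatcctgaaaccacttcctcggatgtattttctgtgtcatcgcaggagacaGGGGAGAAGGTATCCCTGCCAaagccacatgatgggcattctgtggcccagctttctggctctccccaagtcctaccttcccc
Gm30713, chr8:125385634-125385883, plus strand: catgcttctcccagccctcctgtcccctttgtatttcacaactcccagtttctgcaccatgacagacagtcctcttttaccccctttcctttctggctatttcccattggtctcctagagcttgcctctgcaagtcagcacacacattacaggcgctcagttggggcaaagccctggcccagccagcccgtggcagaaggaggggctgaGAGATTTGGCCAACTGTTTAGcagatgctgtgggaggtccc
The summit was base 20 of the Gse1 window, base 238 of Gm51556, base 178 of Gm11264 and base 220 of Gm30713, counted from 1 at the 5′ end. The peak covered all 250 bases of the first 3 windows and 141 bases of Gm30713. The Gse1 window was the richest in G and C of the 4, with 74.8%, against 52.4% (Gm11264), 54.0% (Gm51556) and 55.2% (Gm30713) in the others and a median of 52.4% over 32817 such windows. Both strands of each window were searched for short core motifs of heart factors. They were AGATAA for zinc fingers of the GATA family, GGAATG for TEAD factors, AAGTG for NKX2 homeobox factors, GGTGTGA for T-box factors, CTATTTNTA for MEF2 factors and CATCTG for HAND factors. The Gse1 window held none of the 6. Gm11264 held the NKX2 motif at bases 15 to 19 and 128 to 132, both on the opposite strand and the nearer centred 48 bases from the summit. Gm51556 held the NKX2 motif on the opposite strand at bases 36 to 40 and the GATA motif on the printed strand at bases 115 to 120. Gm30713 held the HAND motif on the opposite strand at bases 231 to 236, just past its capitals. No 2 matches overlapped. Of all windows 40.7% hold the NKX2 motif, 14.5% the HAND motif, 12.6% the TEAD motif, 9.99% the GATA motif, 3.33% the T-box motif and 1.201% the MEF2 motif. The 1053 windows that hold a WT summit had a median of 62.4% G and C, and 34.9% of them hold the NKX2 motif, 10.9% the HAND motif, 15.2% the TEAD motif, 6.74% the GATA motif, 2.85% the T-box motif and 1.90% the MEF2 motif. The matches are a description and no sign of a site.

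Peak number chose the genes, so it is given without a test. Zmiz1 had 30 peaks, Zfp608 29, Tns1 26, Gse1 and Auts2 24 each, Msi2 23, Nfib and Bach2 22 each and Sipa1l2 20. They ranked between place 2 and place 13 (shared) of all genes, while a gene with any peak had a median of 1. Of 15 genes with at least 20 peaks, 6 were not in the set. Alkbh8, a tRNA-modifying enzyme, had 40, all outside the gene and all 40 overlapping a knockout peak, and Rbm20, a splicing factor of titin, had 28. Maml3, a Notch coactivator, and Pakap had 21 each, and Tln2 (talin, an integrin adaptor) and Rad51b had 20 each, as many as Sipa1l2, the lowest member. Just below stood Adgrl2, Sdk1 and Nav2 with 19 and Prdm16, Ppargc1a and Cacna1c with 18.

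**Figure D1:**
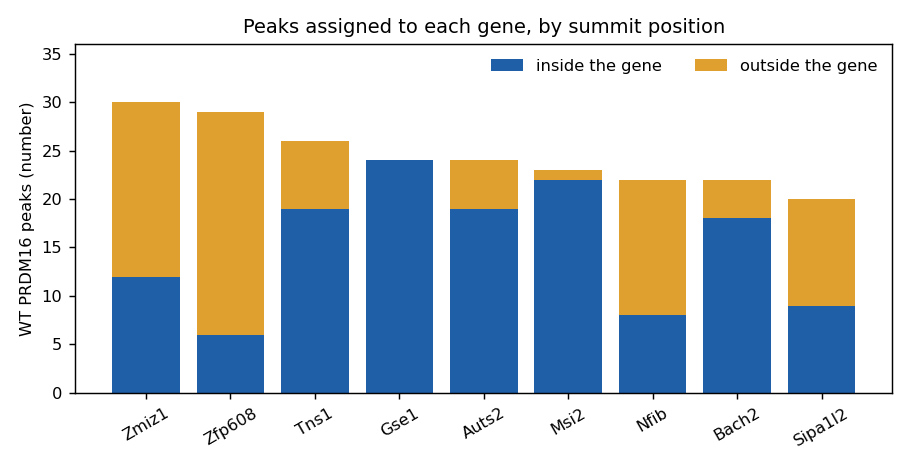
Number of WT PRDM16 peaks (vertical axis) assigned to each of the 9 genes, with summits inside the gene in blue and outside in orange. Gse1 has all 24 inside, whereas Zfp608 has 23 of 29 outside.

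Peaks per length and the spacing of summits follow from the number that chose the genes and are given as a description. The 9 genes with the sequence around them, up to the midpoint to the next gene, covered 6972 kb, 0.236% of such sequence over all genes, and held 1.25% of the peaks. Such sequence was summed gene by gene, so stretches shared by overlapping genes count more than once. This lowers both the 0.236% and the peaks per 100 kb over all genes. Peaks per 100 kb of this sequence ran from 1.23 (Auts2) and 2.29 (Zfp608) to 6.12 (Gse1) and 7.19 (Sipa1l2), against 0.594 over all genes. Inside the gene, Tns1 was densest with 8.87 peaks per 100 kb, and 3 of 2429 genes of at least 100 kb were denser. Auts2, at 1106 kb the longest of the 9, had 1.72 inside, with 550 of those genes denser. Neighbouring summits of one gene lay a median of 6.93 kb apart in Tns1, 7.46 kb in Gse1 and 65.3 kb in Auts2. Over the 220 peaks the nearest other summit was a median of 5.62 kb away, against 16.4 kb for all WT peaks.

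By location, 137 of the 220 summits lay inside the gene (62.3%, 95% Wilson interval 55.7 to 68.4%), against 58.9% of all WT peaks, a difference within the counting error. Within 1000 bp of either end of the gene lay 7 summits (3.18%, 1.55 to 6.42%), against 15.9% of all WT peaks. More than 50000 bp from the gene lay 64 (29.1%), against 15.6%. A gene has 2 ends however many peaks it holds, so the share near ends depends on the peak number that chose the genes and is read no further. Peaks of a gene share its locus, and the intervals cover counting error alone.

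Among the coregulators, Gse1 (chromosome 8, 120228501 to 120581383) held all 24 summits within the gene. Of these, 14 lay in 97.9 kb between 120465991 and 120563937, a stretch with 3 listed transcript starts, at 120488866, 120535857 and 120537409. The nearest summits lay 1600 and 791 bp after the first and the second of these starts and 231 bp before the last, the window printed above. Zmiz1 (chromosome 14, 25457875 to 25666743) had 12 summits inside, 17 before its start and 1 past its end, the farthest 441929 bp away. Its listed start at 25459185 had a summit 1693 bp upstream (fold enrichment 2.47). Auts2 (chromosome 5, 131437333 to 132543220) had 19 inside, of which 6 lay within 43.0 kb from 131515783 to 131558802, and 5 on the higher-coordinate side, up to 724924 bp away.

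Among the nuclear factors, more summits lay outside than inside at Nfib and Zfp608, and fewer at Bach2. Zfp608 (chromosome 18, 54888045 to 54992591) had 6 of 29 inside, with 7 outside on the lower-coordinate and 16 on the higher-coordinate side, up to 647817 bp away. Nfib (chromosome 4, 82290173 to 82506751) had 8 of 22 inside, and 6 peaks lay in 85.9 kb outside the gene, with summits from 82062921 to 82148789. As many had summits from 82416043 to 82511626, around the higher-coordinate end of the gene, and 4 of those were inside. Bach2 (chromosome 4, 32238413 to 32586109) had 18 of 22 inside, 10 of them within 83.6 kb, and the other 4 before the gene. No summit came nearer than 11650 bp to the listed Bach2 start at 32417435, which lies inside the gene, and the summit at 32240036 lay 1.62 kb inside the lower-coordinate end of the gene.

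Msi2 (chromosome 11, 88339382 to 88718306, minus strand) had 22 of 23 summits inside, and the peak nearest to its listed starts was the 1 outside, 55895 bp upstream of the start at 88718277. Tns1 (chromosome 1, 73910232 to 74124548, minus strand) had 19 of 26 inside, 13 of them within 90.8 kb, and 7 past its end. Its listed start at 74124548 had a summit 2185 bp downstream. Sipa1l2 (chromosome 8, 125418068 to 125569863, minus strand) had 9 of 20 inside, 9 past its end and 2 before its start. Its nearest summit to a listed start was 7972 bp away. Of the 11 listed starts of 6 of the genes, the last Gse1 start alone had a peak over its window.

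**Figure D2:**
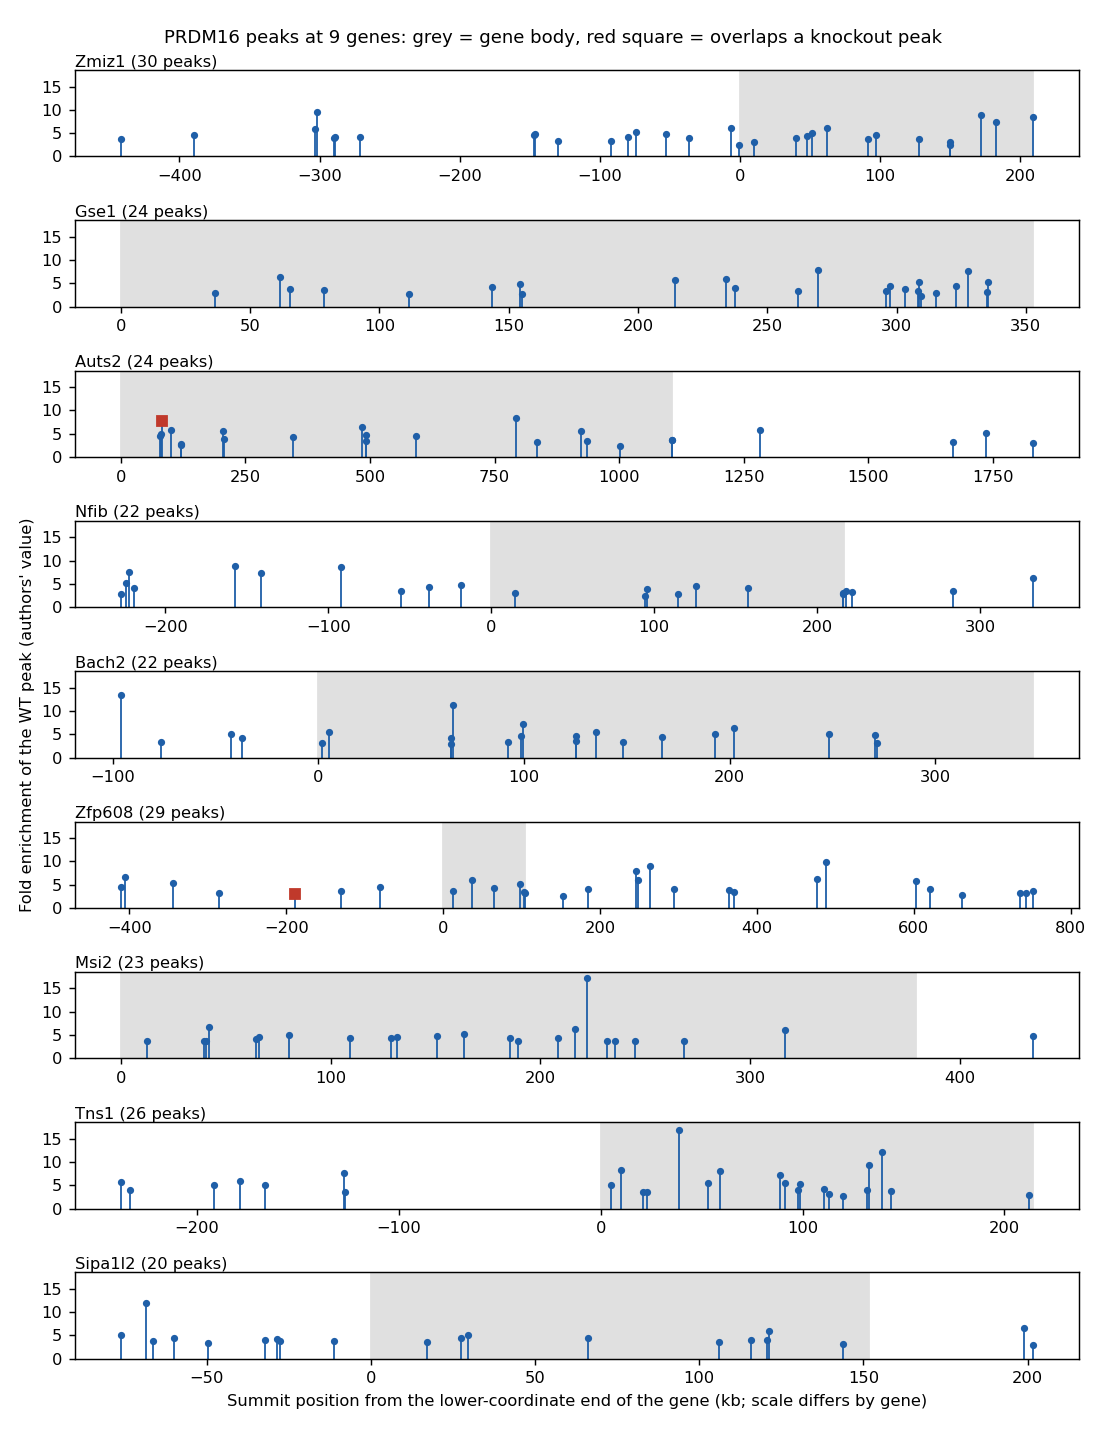
Each line is a WT peak at its distance in kb from the lower-coordinate end of the gene (horizontal axis, scaled per gene) with the authors' fold enrichment as its height, the grey band is the gene and a red square marks overlap with a knockout peak. The highest lines stand in Msi2 (17.3) and Tns1 (16.9), and Zfp608 and Zmiz1 show long runs of peaks outside the gene.

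The signal of a peak is given as fold enrichment over background, a value of the authors' peak caller. The 220 peaks had a median of 4.31 (quartiles 3.54 and 5.39), against 4.004 for all WT peaks (3.39 and 5.07), and 73 of them (33.2%) reached 5, against 26.1% of all. At least 10 was reached by 6 (2.73%), in 4 of the 9 genes, against 2.95% of all. Medians per gene ran from 3.86 (Gse1) to 5.04 (Tns1). Of the WT peaks elsewhere, 55 exceeded the highest of the set.

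That highest peak lay inside Msi2 on chromosome 11 at 88560809 to 88561721, with a fold enrichment of 17.3, and the next Msi2 peak, named after its values were seen, had 6.62. Reads are given here in the order LV-A, LV-B, RV-A and RV-B, letters that stand for the libraries of each ventricle and match no replicate number. At the Msi2 peak they were 72, 28, 52 and 44. The Tns1 peak at 73948459 to 73949253, inside the gene, had 16.9 and 112, 44, 80 and 72 reads in the same order. LV-B has fewer reads over all peaks (184244, against 330443 in LV-A), and as normalized reads the LV values were 53.6 and 41.0 at Msi2 and 83.4 and 64.5 at Tns1. The strongest Bach2 peak, at 32141967 to 32142765 and 96092 bp outside the gene, had 13.48 and reads of 56, 33, 28 and 29. The strongest Sipa1l2 peak, at 125349184 to 125350021 and 68509 bp past the end, had 12.0 and the most reads of that gene (109, 37, 110 and 70). The other 2 peaks of at least 10 lay inside Tns1 (12.1) and inside Bach2 (11.3) and were named after their values were seen.

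In the other genes the strongest peaks stayed under 10. They had 9.81 at Zfp608 (55375638 to 55376204, 383345 bp outside), 9.63 at Zmiz1 (25155640 to 25156611, 301556 bp before the start), 8.79 at Nfib (82132886 to 82133289, 157104 bp outside), 8.40 inside Auts2 (132229650 to 132230171) and 7.97 inside Gse1 (120498095 to 120498717). In 5 of the 9 genes (Bach2, Nfib, Sipa1l2, Zfp608 and Zmiz1) the strongest peak thus lay outside the gene. The LV and RV libraries, which are separate from those of hearts without atria, followed the order of fold enrichment in part. Across the 220 peaks the rank correlation of fold enrichment with the mean LV and RV value was 0.66 (0.52 across all WT peaks), a description over peaks that share libraries. At Nfib the orders parted: reads at its strongest peak were 8, 9, 4 and 10, and its highest LV and RV values belonged to the peak of the printed Gm11264 window (fold enrichment 5.28, reads 52, 13, 29 and 22).

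In the knockout heart nearly all of these peaks had no counterpart. Of the 220, 2 (0.909%, 95% Wilson interval 0.250 to 3.25%) overlapped 1 of 330 knockout peaks by at least 1 bp, against 197 of all WT peaks (1.12%). The overlap inside Auts2, at 131519650 to 131519958, had a fold enrichment of 7.82 in WT, the second highest of that gene, and 11.4 in the knockout, where the peak was 81 bp wide. The overlap assigned to Zfp608, at 54699082 to 54699385 and 188817 bp outside the gene, had 2.998 in WT and 4.76 in the knockout. Its reads of 55, 35, 48 and 50 were the second highest level of that gene, while by fold enrichment it ranked 27 of 29. The knockout has 1 library and no values per library were used, so this comparison has no test, and the depths behind both lists are unknown.

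LV against RV asked whether PRDM16 was bound to a different extent in the ventricles, a comparison that did not choose the genes. Reads at the 220 peaks came to 3534 in LV-A, 1725 in LV-B, 3163 in RV-A and 2737 in RV-B, with medians per peak of 12, 6, 10 and 9.5. Summed over the peaks of a gene, normalized reads differed little between the ventricles. The sums are compared in a limma fit over all 7084 genes with a peak, with log2 of normalized reads plus 1 and Benjamini-Hochberg adjustment over these genes, a fit added after the data were seen.

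Zmiz1 had normalized reads of 366 and 347 in LV and 395 and 393 in RV. Both RV libraries were above both LV libraries, and the log2 difference of RV over LV was 0.14 (SE 0.21, n = 2 pools each, limma adjusted p = 0.967). Gse1 had 325 and 292 in LV and 385 and 308 in RV, with overlapping ventricles and a log2 difference of 0.16. Auts2 had 231 and 256 in LV and 232 and 284 in RV, also overlapping, with 0.07.

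Bach2 had its higher sums in LV, with 310 and 294 against 282 and 237 in RV, no overlap and a log2 difference of -0.22 (SE 0.21, n = 2 pools each, limma adjusted p = 0.921). Nfib had 203 and 163 in LV and 197 and 208 in RV, with overlap and 0.15. Zfp608 had 342 and 355 in LV and 333 and 353 in RV, with overlap and -0.02.

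Msi2 had 219 and 240 in LV and 275 and 253 in RV, both RV libraries above both LV libraries, with a log2 difference of 0.20 (SE 0.20, n = 2 pools each, limma adjusted p = 0.946). Tns1 had 360 and 336 in LV and 354 and 353 in RV, overlapping, with 0.02. Sipa1l2 had 274 and 245 in LV and 286 and 252 in RV, overlapping, with 0.05. In all, ventricles did not overlap in 3 of 9 genes, against 35.1% of all genes with a peak. Of the 87 genes with at least as many normalized reads as the lowest of the 9, which include the 9, it was 11.5%.

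**Figure D3:**
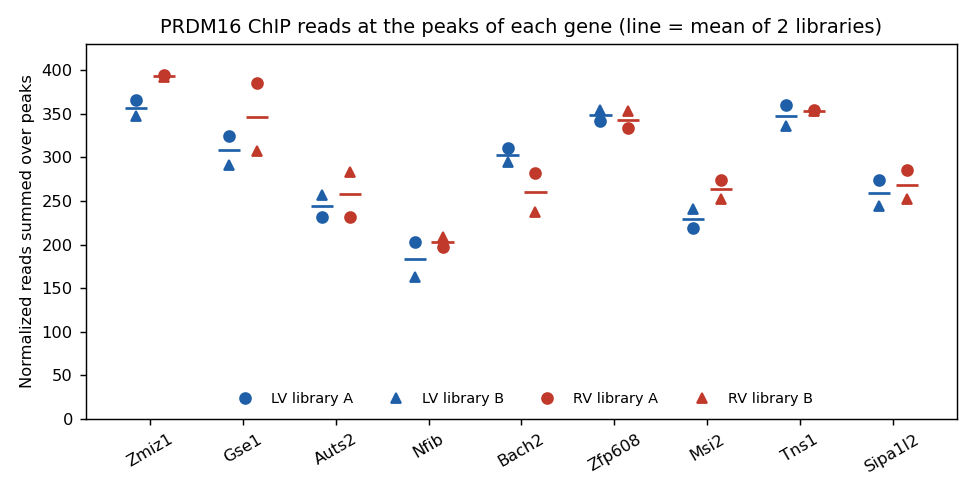
Normalized reads summed over the peaks of each gene (vertical axis) in LV libraries (blue) and RV libraries (red), with a short line at the mean of 2. Nfib is lowest, from 163 to 208, and Zmiz1 reaches 395 in RV.

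None of the 9 sums passed (0 at adjusted p under 0.05, and 0 at an unadjusted p under 0.05), with adjusted p from 0.921 to 0.996. Of all genes with a peak, 0.0423% passed and 6.65% had an unadjusted p under 0.05. The 95% intervals of the log2 difference ran from -0.65 at the lowest (Bach2) to 0.62 at the highest (Msi2). In this fit a log2 of 1 or more, 2-fold, was thus outside the interval of each of the 9 genes. SEs were larger with scaling by total reads and with a library left out, and the 2-fold limit is stated for this fit only. The sums moved with the setting: over the alternatives and with each library left out in turn, the log2 difference ran from 0.00053 to 0.32 at Gse1, from -0.0058 to 0.31 at Nfib, from -0.07 to 0.22 at Auts2, from 0.13 to 0.27 at Msi2 and from -0.35 to -0.098 at Bach2. No sum passed with limma under any of these, and the smallest adjusted p was 0.670 (Nfib).

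**Figure D4:**
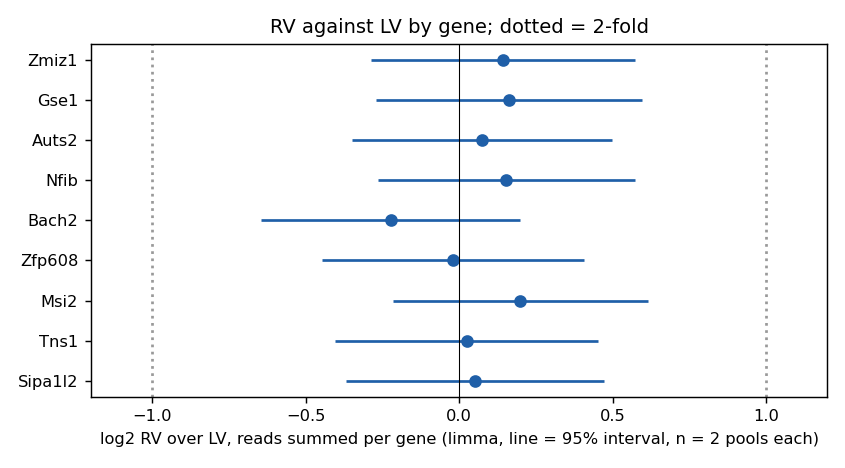
Points are log2 of RV over LV (horizontal axis) of the reads summed per gene, lines are 95% intervals of limma (n = 2 pools per ventricle) and dotted lines mark 2-fold. All 9 intervals include 0 and end before the dotted lines.

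At single peaks the spread was wider. In the authors' deposited table the log2 of RV over LV had a median of 0.04 over the 220 peaks (SD 0.63) and of -0.0028 over all regions (SD 0.63), with 115 of the 220 higher in RV and 105 higher in LV. A log2 of at least 1 in either direction was found at 24 (10.9%), against 10.6% of all regions. Per gene the median in the authors' deposited table ran from -0.12 (Bach2) to 0.19 (Msi2), and 18 of 29 Zfp608 peaks were higher in LV. By role, 46 of 78 peaks of the coregulators were higher in RV in the authors' deposited table, 32 of 73 of the factors, 14 of 23 of Msi2 and 23 of 46 of Tns1 and Sipa1l2, where 49.8% of all regions were.

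With limma on log2 of normalized reads plus 1 over all 17587 regions, 0 of the 220 peaks passed at an adjusted p under 0.05, where 0.0284% of all regions did. At an unadjusted p under 0.05 there were 16 (7.27%), 4 higher in LV and 12 higher in RV, against 6.32% of all regions (551 and 560). The libraries of the ventricles did not overlap at 73 of the 220 (33.2%), against 35.4% of all regions. The authors' deposited table, which does not name its test, had 0 of the 220 at an adjusted p under 0.05 (0% of all regions) and 0 at an unadjusted p under 0.05 (0.483% of all). Its smallest p at these peaks was 0.0611.

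The 3 peaks of smallest limma p on the LV side belonged to Zfp608, Sipa1l2 and Bach2. The Zfp608 peak, at 55073175 to 55073550 and 80729 bp outside the gene, had 17 and 10 reads in LV and 1 and 7 in RV, with no overlap (log2 -1.94, SE 0.588, limma adjusted p = 0.542). The Sipa1l2 peak, inside the gene at 125539152 to 125539905, had 51 and 20 against 28 and 9 reads, which as normalized reads are 38.0 and 29.3 against 24.2 and 8.68 (log2 -1.14). The Bach2 peak, inside the gene at 32431056 to 32431292 and 13747 bp after its listed start, had 14 and 12 against 5 and 6 reads (log2 -1.28). These 3 were picked by their p, so that the separation of the libraries follows from that choice. Over the alternative settings their limma adjusted p ran from 0.196 to 0.992, and the log2 from -2.97 to -0.92 at Zfp608, from -1.83 to -0.44 at Sipa1l2 and from -1.63 to -0.90 at Bach2.

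On the RV side they belonged to Nfib, Zmiz1 and Auts2, where LV-B had 0 to 2 reads. They too were picked by their p, so the separation of the libraries follows from that choice. The result without LV-A, given below, uses the same values that picked them. The Nfib peak, at 82062812 to 82063038 and 227252 bp outside, had 4 and 0 reads in LV and 12 and 8 in RV (log2 2.32, SE 0.723, limma adjusted p = 0.573). The Zmiz1 peak, at 25186373 to 25186840 and 271190 bp outside, had 7 and 1 against 11 and 16 reads (log2 1.75). The Auts2 peak, inside the gene at 132361103 to 132361424, had 15 and 2 against 18 and 19 reads (log2 1.37). Without LV-A, which leaves LV-B alone on the LV side, these 3 passed with limma, at log2 of 3.32 (adjusted p = 0.0203), 2.42 (0.0469) and 2.19 (0.0143), as did 90 of all regions, and the lone library is then assumed to vary as the RV libraries do. Under the other settings their limma adjusted p ran from 0.364 to 0.992, and the log2 of the Nfib peak, with 0 reads in LV-B, ran from 1.15 to 4.03 with the setting. Over all settings, that of the Zmiz1 peak ran from 1.08 to 2.42 and that of the Auts2 peak from 0.56 to 2.19. Both upper ends came from the fit without LV-A. Without any other library 0 of the 220 passed.

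**Figure D5:**
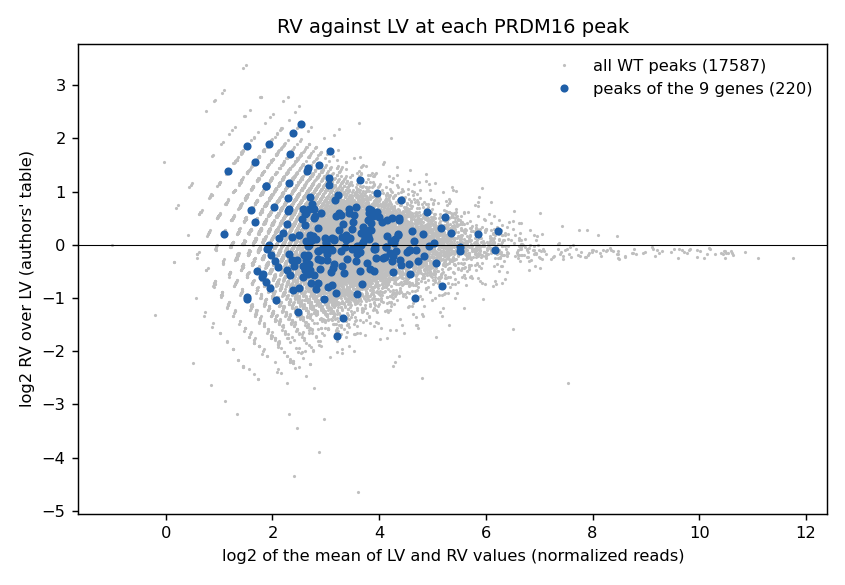
Each point is a WT peak, with log2 of RV over LV of the authors' deposited table (vertical axis) against log2 of the mean of both values (horizontal axis), and the 220 peaks of the 9 genes are in blue. They spread on both sides of 0 as the grey points of all 17587 peaks do, with a median of 0.04.

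None of the 4 peaks with printed sequence passed in LV against RV. Reads, in the order above, were 44, 19, 34 and 31 at the Gse1 start (fold enrichment 5.29, log2 -0.02) and 9, 5, 6 and 8 at Gm51556 (3.28, log2 -0.12). At Gm11264 the log2 was -0.23. At Gm30713 they were 13, 9, 8 and 5 (fold enrichment 4.10, log2 -0.86, SE 0.480, limma adjusted p = 0.807), with both RV libraries below both LV libraries.

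Peak numbers of paralogs and partners of the 9 proteins are given as a description, since the 9 genes were chosen for a high number. Of 15 paralogs, 10 had a peak, with 51 in all and a median of 2 per gene. Nfia, a nuclear factor I gene like Nfib, had 14 (log2 of RV over LV 0.19 at the median peak in the authors' deposited table), Sipa1l1 had 12 with a highest fold enrichment of 12.0, and Tns3 had 8 with 11.5. Msi1 and Zmiz2 had none. Of the 51 peaks 0 passed limma at an adjusted p under 0.05, against 0.0284% of all regions. An unadjusted limma p under 0.05 was found at 1, against 6.32% of all regions. Among 24 genes of complexes joined by GSE1, AUTS2 or ZMIZ1 and of PRDM16 cofactors, 13 had a peak, 26 in all. Ctbp2, a corepressor bound by PRDM16, had 6 and Pcgf5, a Polycomb subunit, had 3, while the deacetylase genes Hdac1 and Hdac2 had none. Of these 26 peaks 0 passed, and 1 had an unadjusted p under 0.05, beside the same shares of all regions. Peaks per 100 kb were 1.44 in the paralogs and 1.01 in the partner genes, against 0.594 over all genes.

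Outside the set, the genes with at least 20 peaks whose share of peaks inside, median fold enrichment and peaks per 100 kb lay nearest to the mean of the 9 were Tln2 (distance 0.33 in standard deviations over 15 genes) and Rad51b (0.45). Maml3 (0.98), Pakap (1.201) and Rbm20 (3.24) followed, while the 9 genes themselves lay 0.76 (Bach2) to 1.59 (Zfp608) from their mean.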

How the data were processed

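The deposited files are a peak list each for WT and knockout hearts and a table that compares the ventricles. BWA (0.7.12-r1039), MACS2 (2.1.1.20160309), HOMER, DESeq2 and 2 names of 1 mouse build (GRCm38, mm10) appear, with no role given, per the submitters' processing notes. How replicates were pooled and filtered is not stated there. The deposited peak lists give a score, a ratio of ChIP to background (fold enrichment) and a -log10 q for each peak. The deposited table gives, per the file headers, the signal in LV and in RV, log2 values, and p-values raw and adjusted by the authors.

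Each of its LV and RV values was 0.5 plus the mean over both libraries of whole reads multiplied by a library factor. Reads were worked out at 100% of 17587 regions (tolerance 1e-07), with factors of 0.744 (LV-A), 1.47 (LV-B), 0.866 (RV-A) and 0.965 (RV-B) and 330443, 184244, 281797 and 267808 reads over all peaks. Whether this scaling keeps a difference common to all peaks is not stated.

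Summits were matched to protein-coding genes of the RefSeq table for GRCm38 by distance to the gene body, and positions are 1-based. LV and RV were compared with limma 3.58.1 (R 4.3.3, mean-variance trend, pseudocount 1, no minimum of reads). A check on simulated reads changed only peaks with a mean of at least 8 reads, by far more than the 9 sums differed. It does not cover smaller differences or changes at peaks with fewer reads. Whether the pools came from separate embryos is not stated, so p-values refer to these libraries only. The limma SEs and p-values draw on the variance trend over all regions or genes besides the libraries of each. For the 9 sums the SEs lay between 0.204 and 0.213. The SD of normalized reads between RV libraries was 0.81 at Tns1 and 54.9 at Gse1. Python 3.11.15, pandas 2.3.3, scipy 1.17.1 and matplotlib 3.10.9 did the rest. The 9 genes, lists, motifs and tests were chosen with earlier results of these data known. Named were the 9 genes, the strongest peak of each, the 3 peaks of smallest limma p per side, the genes next to the lowest member by peak number, the genes most like the members and leading genes of each list, of which 1 is not reported here. Alternatives were other pseudocounts, scaling, a minimum of reads, stricter peaks, other assignments and leaving out each library.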

Additional observations from a re-analysis of the deposited data

How the results depend on the processing

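The number of peaks of the 9 genes that passed in LV against RV was 0 with pseudocounts of 0.1 and 5, with a mean of at least 8 reads (125 of the 220 peaks), with scaling by total reads in peaks, with summits inside the genes only and with reads summed per gene. Leaving out 1 library gave 0 to 3, the 3 without LV-A. The median log2 of RV over LV over the 220 peaks was 0.06 with limma, 0.03 to 0.10 under these settings and 0.07 to 0.11 without 1 library. Over all regions it was 0.010 with limma and -0.020 to 0.042 without 1 library. With the other pseudocounts, the minimum of reads and the other scaling it was 0.0022 to 0.044, highest with the scaling. In the authors' deposited table an adjusted p under 0.1 gave 0. At a fold enrichment of at least 5 the 9 genes had 73 peaks, 1 of which overlapped a knockout peak, and with an overlap of at least 50% of the WT peak 1 did. The 73 are fewer by construction. Other settings left 156 to 218 peaks, and the share inside the gene was 58.9 to 64.1%. No paired analysis was possible because the LV and RV columns are means that carry no replicate numbers. Depth limits single peaks: the median SE of log2 at the 220 peaks was 0.49.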
